A study of Zea mays with 4 samples.

Results

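In B73, the inbred line behind the maize reference genome, 25 of 30378 transcribed loci of the elongation zone of leaf 6 had 3 FPKM or more at control nitrogen and less than 0.5 FPKM under low nitrogen. A locus was counted when both libraries of each group met its limit. FPKM is the number of sequenced fragments per kilobase of transcript and per 1000000 mapped fragments, a level corrected for transcript length. Loci without a gene model (3431 of the table) and 1 named locus, GRMZM2G124540, were outside this rule, which left 26946 loci to choose from. The name switched-off locus stands for this rule and for nothing more, since 14 of the 25 loci still had a value above 0 in both low-nitrogen libraries. The loci were thus chosen by their FPKM values at both nitrogen levels, so that difference is given as a description, with no test. When HN1 was left out, and HN2 alone decided for its group, 38 loci met the rule.

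Plants were raised in hydroculture, a nutrient solution without soil. Control plants received 4 mM nitrogen (HN, 2 libraries) and low-nitrogen plants 0.04 mM nitrogen (LN, 2 libraries). For the control dose the labels disagree on the unit, with nM in the source name and mM in the description, and mM was taken. The series title places the work on low-nitrogen stress, leaf cell flux and cell elongation. The HN columns of the deposited table carry 1 and the same name, so HN1 and HN2 stand for the first and the second of them. The labels do not state separate plants or cultures for the 2 libraries of each group, so every p-value measures the spread between these libraries, which may be technical.

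Nitrate is both a nutrient and a signal in plants. Its supply sets the transcript level of many genes for nitrogen uptake, assimilation and redox balance, and the growth zone of a grass leaf is a strong sink for the nitrogen that is taken up. In a leaf of a grass, cells divide at the base, lengthen in the elongation zone and mature towards the tip. A tissue sample of this kind mixes cell types, and a lower share of cells of a type cannot be told apart here from less transcript in each cell.

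The tissue label was checked on marker genes. Summed over 12 tubulin loci the level was 6530 to 9585 FPKM in the 4 libraries, and over 12 expansin loci, which encode wall-loosening proteins of lengthening cells, 428 to 683 FPKM. The meristem gene kn1 was at 0.0507 FPKM in HN1, at 0.0715 in HN2 and listed at 0 in both LN libraries. Histones were planned together with kn1 as markers of dividing cells, and they were abundant in all 4 libraries. The markers of dividing cells thus disagreed, and this check does not exclude dividing cells from the samples. Summed histone levels moved with nitrogen, at 5966 and 11340 FPKM in HN1 and HN2 against 2315 and 2041 in LN1 and LN2, over 27 loci. The photosynthesis gene pep1 (GRMZM2G083841), a marker of mature leaf cells, moved the same way. It was at 50.6 and 55.6 FPKM in HN1 and HN2 against 5.857 and 6.499 in LN1 and LN2. The planned check had summed 2 loci under this name, at 58.6 and 65.2 FPKM in HN1 and HN2 against 19.7 and 23.0 in LN1 and LN2. The rest of that sum, from the other locus, was higher in LN than in HN, so the sum mixes opposite directions. Also planned as markers of mature leaf cells, me3 and the rubisco small subunit matched no locus in this check. The photosynthesis gene list did hold the rubisco gene rbcS (GRMZM2G113033). It was at 261 and 385 FPKM in HN1 and HN2 against 64.2 and 49.8 in LN1 and LN2. The part of these differences in the levels of the switched-off loci was not tested. The FPKM values summed to 814307 and 1113329 over HN1 and HN2 and to 666397 and 710263 over LN1 and LN2, and the number of fragments behind them is unknown.

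Both loci whose first gene name carries a hemoglobin symbol (Hb, Hb2 or Hbm) were among the 25. Further names of the 851 loci with several gene names were not searched. Plant hemoglobins of the non-symbiotic kind bind oxygen tightly and turn nitric oxide into nitrate, and genes of this kind respond to nitrate supply in Arabidopsis and rice. HB (chromosome 9, 145596855 to 145598153, a position in the build B73 RefGen_v3, which all positions below use) was at 9.18 FPKM in HN1 and 10.2 in HN2, and was listed at 0 in LN1 and in LN2. Hb2 (GRMZM2G168898, chromosome 6, 159342530 to 159343955) was at 5.30 FPKM in HN1 and 5.78 in HN2 against 0.296 in LN1 and 0.195 in LN2. For both genes the HN libraries lay close together, with an HN2 to HN1 ratio of 1.11 for HB and 1.09 for Hb2. The mean of Hb2 was 5.54 ± 0.338 FPKM in HN and 0.245 ± 0.0710 in LN (SD, n = 2), a 22.6-fold ratio. In the authors' deposited table the log2 fold change of LN against HN was -9.38 for HB and -4.53 for Hb2. Whether hemoglobin protein differed was not measured.

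LOB14 (GRMZM2G044902, chromosome 1, 77152674 to 77154117) encodes a protein of the LOB domain family, plant transcription factors with roles at organ boundaries and, in Arabidopsis, in the response to nitrate. Its level was 9.04 FPKM in HN1, 9.72 in HN2 and 0.173 in LN1, and it was listed at 0 in LN2. None of the other 6 loci named for a LOB gene met the limits. LBD6, the indeterminate gametophyte gene IG1, was at 4.18 and 2.93 FPKM with control nitrogen against 8.09 and 6.10 with low nitrogen (limma log2 change 0.83, SE 0.26, adjusted p = 0.104). LOB19 was at 2.95 and 5.34 FPKM with control nitrogen against 4.93 and 4.74 with low nitrogen. LOB31 was between 1.48 and 2.28 FPKM in all 4 libraries, with overlapping groups, as LOB19 had. Another 3 LOB loci, LOB15, LOB33 and LOB11, did not reach the filter on low levels. A locus that joins LOB38 with another gene name was left out of these counts. Of the 7 LOB loci 4 were tested, and limma called none of the 3 tested besides LOB14, whose own values chose it.

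The prohibitin gene phb3 (GRMZM2G410710, chromosome 5, 177870706 to 177873657) belongs to a family of mitochondrial inner membrane proteins that form ring-shaped scaffolds. Its level was 4.10 FPKM in HN1 and 5.80 in HN2 against 0.273 in LN1 and 0.299 in LN2. Its relatives were far more abundant and stayed above the limit of 0.5 FPKM in LN. phb2 was at 115.0 FPKM in HN1 and 228 in HN2 against 44.7 in LN1 and 50.3 in LN2. phb1 was at 96.1 FPKM in HN1 and 128 in HN2 against 50.7 in LN1 and 45.8 in LN2. In both relatives the 2 HN libraries lay above the 2 LN libraries, but limma did not call either one, with log2 changes of -1.75 for phb2 (SE 0.37, limma adjusted p = 0.0564) and -1.19 for phb1 (SE 0.24, limma adjusted p = 0.0547). The authors' deposited table gave q-values of 6.42e-06 for phb2 and 0.00132 for phb1. The hemoglobin, LOB and prohibitin relatives were picked after the values of the switched-off loci had been seen.

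**Figure D1:**
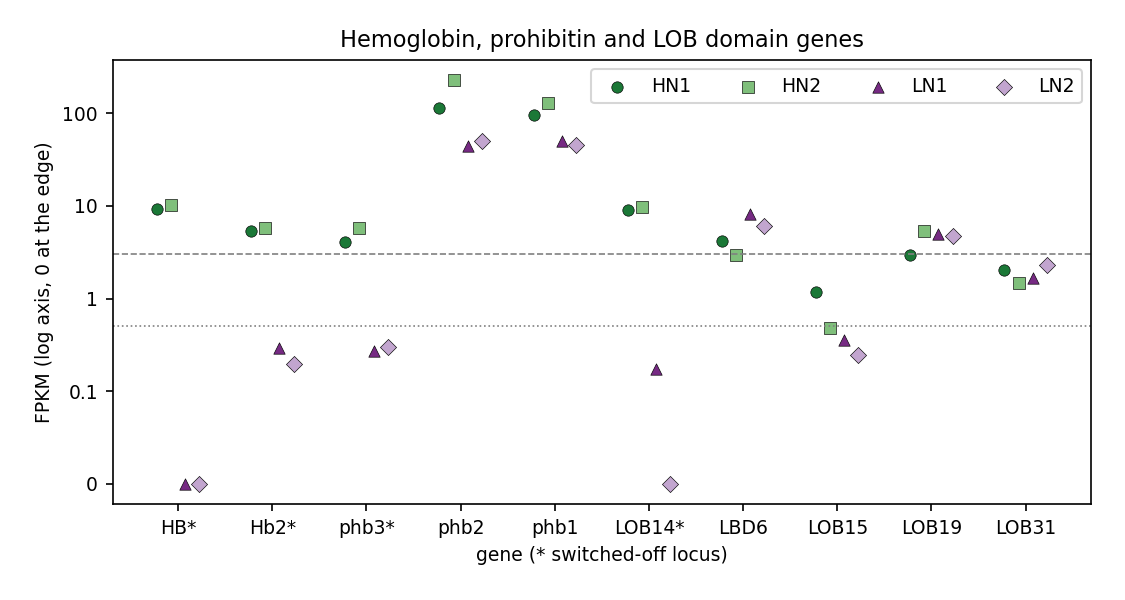
FPKM (log axis) of hemoglobin, prohibitin and LOB domain genes that reached 1 FPKM in at least 1 library, 1 point per library, with the rule's limits of 3 (dashed) and 0.5 FPKM (dotted). The starred genes HB, Hb2, phb3 and LOB14 drop below 0.5 FPKM in both LN libraries, while phb1 and phb2 stay above 44 FPKM.

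A further 7 loci had 1 matching gene record in the RefSeq table but no symbol there. The most abundant was GRMZM2G113967 (chromosome 4, 184154937 to 184157596), at 37.3 FPKM in HN1 and 17.5 in HN2 against 0.134 in LN1 and 0.234 in LN2. GRMZM2G171468 (chromosome 5, 6146191 to 6148391) was at 24.97 FPKM in HN1 and 13.2 in HN2 against 0.441 in LN1 and 0.454 in LN2. Both were higher in HN1 than in HN2, the opposite of the library totals. GRMZM2G113967 had the lowest HN2 to HN1 ratio of the 25, 0.468.

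GRMZM2G392863 was at 5.66 FPKM in HN1 and 14.8 in HN2 against 0.321 in LN1 and 0.240 in LN2. GRMZM2G174310 was at 4.38 FPKM in HN1 and 8.17 in HN2 against 0.0626 in LN1 and 0.345 in LN2. These 2 loci on chromosome 1 were higher in HN2, with HN2 to HN1 ratios of 2.61 and 1.86. GRMZM2G160922 (chromosome 7) was at 7.80 FPKM in HN1 and 4.31 in HN2 against 0.180 in LN1 and 0.251 in LN2. GRMZM2G096407 (chromosome 8) was at 7.41 FPKM in HN1 and 5.53 in HN2 against 0.366 in LN1 and 0.372 in LN2. GRMZM2G038783 (chromosome 9) was at 6.38 FPKM in HN1 and 4.60 in HN2 against 0.170 in LN1 and 0.260 in LN2. In these last 3 loci HN1 was the higher HN library and LN2 the higher LN library.

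The remaining 14 loci matched no gene record, and no role is given for them. GRMZM2G061439 (chromosome 3, 214453880 to 214454616) was at 28.6 FPKM in HN1 and 143 in HN2, at 0.0988 in LN1 and listed at 0 in LN2. Its HN libraries differed 5.02-fold, the widest gap of the 25. GRMZM2G064091 (chromosome 3, 227172588 to 227175344) was at 8.90 FPKM in HN1 and 14.9 in HN2 against 0.0241 in LN1 and 0.0524 in LN2. These LN values are near the least that the libraries recorded. The 1st percentile of values above 0 over loci of 1000 to 3000 bp was 0.0297 FPKM in LN1 and 0.0329 in LN2.

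GRMZM2G055802 (chromosome 1) was at 7.43 FPKM in HN1 and 8.76 in HN2 against 0.157 in LN1 and 0.205 in LN2. GRMZM2G146004 (chromosome 8) was at 3.94 FPKM in HN1 and 10.5 in HN2 against 0.136 in LN1 and 0.225 in LN2. The HN libraries were close in the first of these and 2.67-fold apart in the second. GRMZM2G017319 (chromosome 1) was at 4.67 FPKM in HN1, 4.40 in HN2 and 0.145 in LN2, and was listed at 0 in LN1. AC206199.3_FG005 (chromosome 2) was at 4.10 FPKM in HN1, 4.66 in HN2 and 0.156 in LN2, and was also listed at 0 in LN1. For both of these the HN libraries were within 1.14-fold of each other.

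Another 3 unmatched loci were listed at 0 in both LN libraries and were at a few FPKM or more in HN. GRMZM2G127909 (chromosome 9) was at 10.7 FPKM in HN1 and 20.0 in HN2. GRMZM5G892308 (chromosome 2) was at 3.95 and 3.36 FPKM, and GRMZM2G337706 (chromosome 10) at 3.03 and 3.84 FPKM. The first 2 of them span 352 and 332 bp and are the only switched-off loci shorter than 500 bp. In the authors' deposited table the q-value of GRMZM5G892308 was 0.102, while that of GRMZM2G337706 was 3.84e-12.

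Among the highest levels of the 25 were those of 3 loci that the authors' own comparison did not separate. GRMZM5G837022 (chromosome 6, 14773748 to 14784314) was at 130.1 FPKM in HN1 and 309 in HN2, and GRMZM5G849275 (chromosome 6, 144849850 to 144860479) at 95.8 and 228 FPKM. GRMZM5G844344 (chromosome 7, 18059876 to 18065190) was at 7.58 and 18.0 FPKM, and all 3 were listed at 0 in both LN libraries. Their mean levels ran from 12.8 to 219 FPKM, yet their HN2 to HN1 ratios were nearly alike, at 2.37, 2.38 and 2.37. In the authors' deposited table each had a log2 fold change of -3.74 and a p-value of 0.268 to 0.269, with a q-value of 0.521. A further 19 loci of the table shared this log2 fold change to within 0.0001, with p-values in the range from 0.26841 to 0.26868. These 19 loci had only 0.0299 to 1.20 FPKM in HN1 and 0.0705 to 2.73 FPKM in HN2. Of the 22 loci, 21 had an HN2 to HN1 ratio between 2.2 and 2.4, a range that held 1.21% of all loci with both HN values at 3 FPKM or more. The number of fragments behind these values is unknown, and whether the 3 high levels rest on few fragments was not tested.

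**Figure D2:**
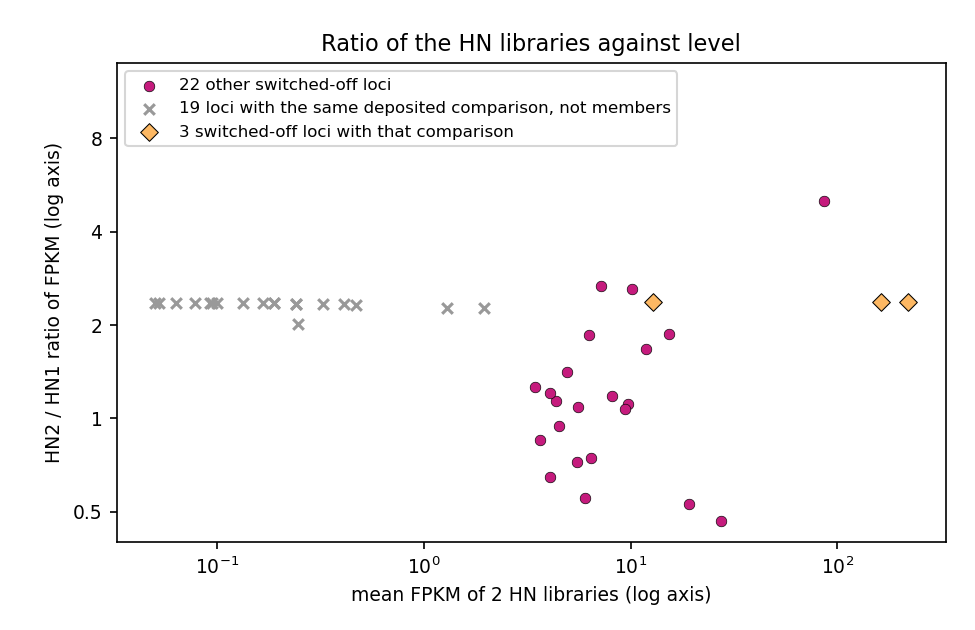
HN2 to HN1 ratio of FPKM (log axis) against the mean FPKM of both HN libraries (log axis), 1 point per locus. The 3 diamonds and the 19 crosses share 1 deposited comparison and lie along a ratio of 2.0 to 2.4 over the whole range of levels, while the other switched-off loci spread from 0.468 to 5.02.

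Positions in the table are spans of assembled regions, and 4 of the 25 loci (16%) share theirs exactly with another locus, against 11.1% of the loci with both HN values at 3 FPKM or more. The strand of each locus was not used here. GRMZM5G837022 is also 1 of 2 gene names of a second locus on the same span, which was at 12.1 FPKM in HN1 and 20.5 in HN2 against 10.9 in LN1 and 11.3 in LN2. So the gene name itself was not below 0.5 FPKM in LN. GRMZM5G849275 shares its span with GRMZM2G045892, which was at 9.37 and 11.6 FPKM with control nitrogen against 10.3 and 10.4 with low nitrogen (limma log2 change -0.0057, adjusted p = 0.988). AC206199.3_FG005 shares its span with GRMZM2G127457, at 1.14 and 1.07 FPKM with control nitrogen against 0.576 and 0.495 with low nitrogen.

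The 4th of these loci is GRMZM2G429955, whose region on chromosome 3 covers 177178 bp, from 223440714 to 223617891. It was at 4.94 FPKM in HN1 and 3.19 in HN2 against 0.483 in LN1 and 0.199 in LN2. The other locus of that region joins 4 gene names, among them the chlorophyll-binding protein gene CAB48, and was at 87.2 and 97.8 FPKM with control nitrogen against 7.82 and 4.10 with low nitrogen (limma log2 change -3.80, adjusted p = 0.0294). Reads shared between loci of 1 region cannot be told apart here.

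**Figure D3:**
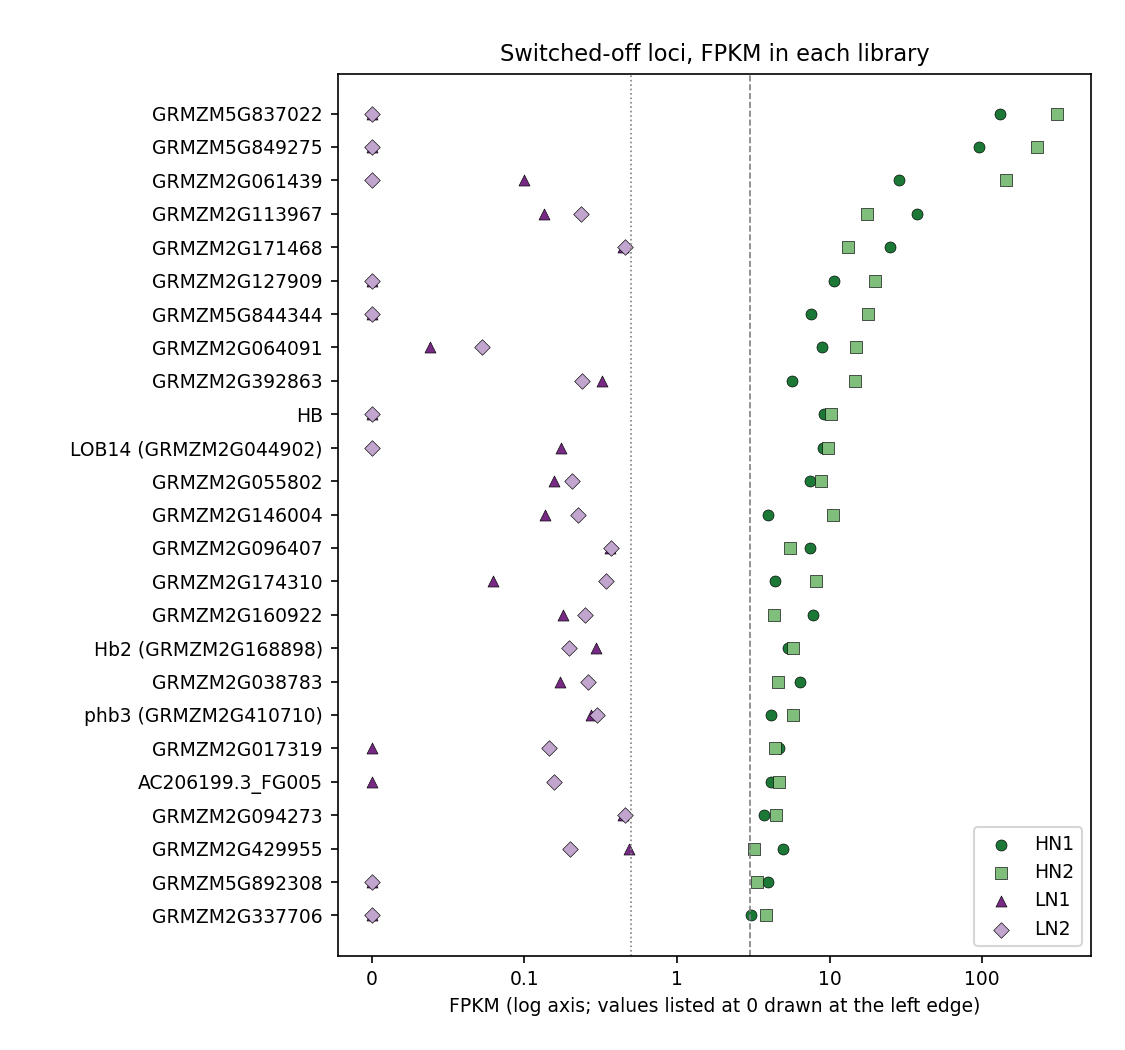
FPKM (log axis) of the 25 switched-off loci in each of the 4 libraries, ordered by mean HN level, with the limits of 3 (dashed) and 0.5 FPKM (dotted). Values listed at 0 are drawn at the left edge; 7 loci have both LN points there, and the HN points of the 3 loci at the lower end lie just right of the dashed line.

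Seen together, the 25 loci ran from a mean HN level of 3.44 FPKM for GRMZM2G337706 to 219 FPKM for GRMZM5G837022. For GRMZM5G837022 the authors' deposited comparison gave a q-value of 0.521, and a second locus under its name was at 10.9 and 11.3 FPKM in LN. The median of the 25 was 7.24 FPKM, lower than the 14.99 FPKM of all 14774 named loci with both HN values at 3 FPKM or more. In LN, 7 loci were listed at 0 in both libraries, 4 in 1 library and 14 in neither. Over the 18 loci with a value above 0 in LN the ratio of the HN mean to the LN mean ran from 9.07-fold for GRMZM2G094273, at 3.70 and 4.47 FPKM with control nitrogen against 0.446 and 0.455 with low nitrogen, through a median of 38.3-fold. The highest ratio, 1740-fold for GRMZM2G061439, rests on 1 LN library, since the other was listed at 0. HN2 was the higher HN library in 17 of the 25 (68%), and in 62.2% of all named loci with both HN values at 3 FPKM or more.

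**Figure D4:**
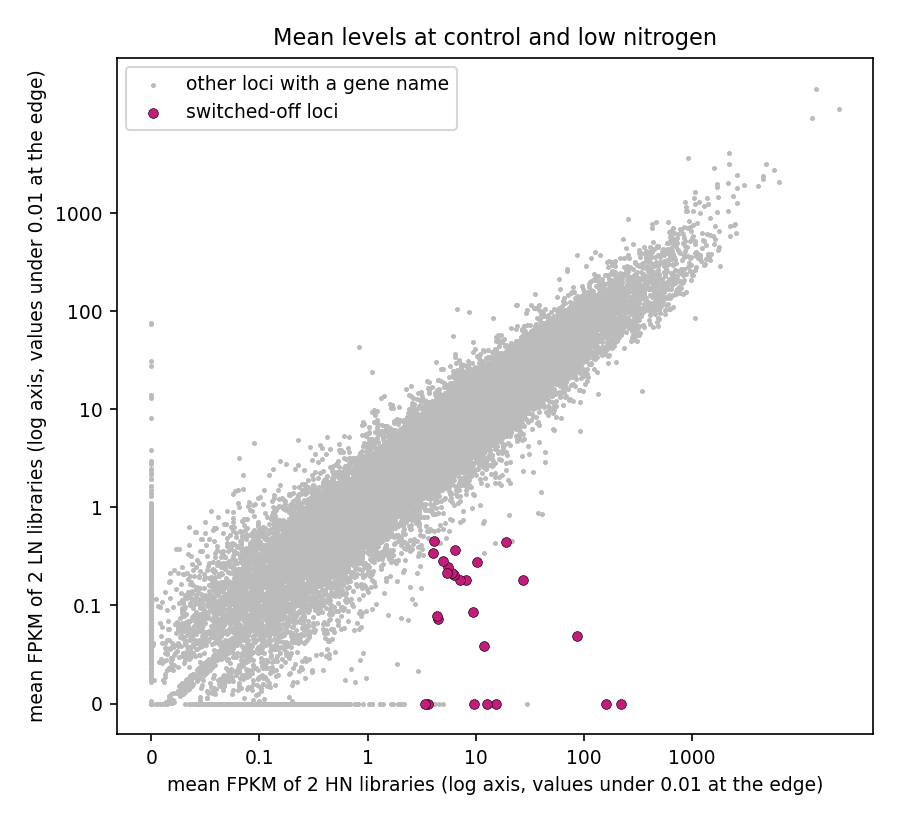
Mean FPKM of the 2 LN libraries against the mean of the 2 HN libraries for all loci with a gene name (both axes log), with values under 0.01 drawn at the edge. The 25 switched-off loci lie below the main cloud, where the HN mean is 3.44 or more and the LN mean stays under 0.5 FPKM.

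limma on log2(FPKM + 1) called all 25 lower in LN, beside a background of 3.80% of 22489 tested loci called lower at an adjusted p under 0.05. The rule used the same contrast and the 25 loci passed the filter on low levels through HN alone, so nothing is read from this count. The authors' deposited table called 21 of the 25 lower at a q-value under 0.05, beside 10.5% of 30378 loci. That comparison is of the same libraries by which the 25 were chosen, so nothing is read from this count either. The log2(FPKM + 1) scale shrinks changes at low levels. On it the limma log2 changes of the 25 ran from -7.65, for GRMZM5G837022, to -1.81, with a median of -2.68. The median of all tested loci was 0.073. limma called 1121 loci in either direction with 4 libraries, 10470 without HN1, 4585 without HN2, 76 without LN1 and 84 without LN2. Of the 25, 11 remained called without LN1 and 12 without LN2, 17 with a pseudocount of 0.1 in place of 1, and 0 when loci of any level above 0 were tested.

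Span, names and position were not used by the rule and are given as descriptions. The median span of the 25 loci was 1822 bp, against 4437 bp for all named loci with both HN values at 3 FPKM or more. Of the 25, 11 (44%) matched 1 RefSeq gene, against 75.4% of those loci, and 4 (16%) carried a symbol, against 10.8%. All 25 were loci of 1 gene name. They lay on all 10 chromosomes, with 5 on chromosome 1 and at most 3 on any other. The closest pair, GRMZM2G429955 and GRMZM2G064091 on chromosome 3, lay 3554697 bp apart, so no 2 switched-off loci were neighbours.

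Genes beside the switched-off loci were compared as a description. The nearest tested named locus on each side gave 50 neighbours, with a median log2 change of -0.075, beside 0.073 for all tested loci. Of these, limma called 4 lower and 0 higher, beside 3.80% of all tested loci called lower, and none was a switched-off locus. The 4 included GRMZM2G044128 before GRMZM2G146004 (limma log2 change -2.32), GRMZM2G098423 before GRMZM2G038783 (-1.53) and GRMZM2G026346 after GRMZM2G017319 (-1.48). The smallest change of the 4 was that of GRMZM2G386674, which lies 28019 bp before Hb2. It was at 8.61 and 9.07 FPKM with control nitrogen against 3.72 and 3.22 with low nitrogen (limma log2 change -1.14, adjusted p = 0.0472). On the other side, GRMZM2G168909 lies 2473 bp from Hb2, and its log2 change was -0.67 (limma adjusted p = 0.102). The locus 1652 bp before HB, GRMZM2G067426, had a positive log2 change, 1.12 (limma adjusted p = 0.051). GRMZM2G067225, which lies 5814 bp after HB, had a negative one, -0.98 (limma adjusted p = 0.119).

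None of the 25 stood on the wider gene lists, but this was fixed in advance. The lists were made from symbols, which only 4 of the 25 carried, and no list covered the families of those 4. Nothing is therefore read from it about what the 25 loci are. Across 29 lists by symbol, which had no hemoglobin, prohibitin or LOB list, among them transcription factors, cytochromes P450, defence proteins, hormone genes, photosynthesis and ribosomal proteins, 0 lists held a switched-off locus. The nitrogen list was drawn by symbol patterns for nitrate and ammonium transport, nitrate reduction, and glutamine, glutamate and asparagine enzymes. In it limma called 1 of 14 tested loci lower and 0 higher, beside 3.80% of all tested loci called lower. Nothing is read from this count. The median log2 change of the list was -0.53. That locus was the glutamine synthetase gene GLN2, at 105.7 and 106.1 FPKM with control nitrogen against 30.3 and 33.8 with low nitrogen. The G2-like factor gene GLK44, the named locus that the rule leaves out, met both limits, at 10.3 and 13.6 FPKM with control nitrogen against 0.366 and 0.319 with low nitrogen. The type-A response regulator gene RR6, which acts in cytokinin signalling, lay near the limits, at 4.19 and 3.25 FPKM with control nitrogen against 0.661 and 0.496 with low nitrogen. The ethylene synthesis gene acco20 lay just under the HN limit, at 2.54 and 3.54 FPKM, with 0.287 and 0.224 in LN.

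The limits cut through a continuous range of levels. Just inside the HN limit were GRMZM2G337706, GRMZM2G429955 and GRMZM5G892308, with lower HN values of 3.03, 3.19 and 3.36 FPKM. Just outside it were GRMZM5G847020 (5.16 and 2.96 FPKM in HN), GRMZM2G166548 (2.89 and 2.91) and GRMZM2G134264 (3.17 and 2.75), all under 0.5 FPKM in LN. Just inside the LN limit were GRMZM2G429955, GRMZM2G094273 and GRMZM2G171468, with higher LN values of 0.483, 0.455 and 0.454 FPKM. Just outside it were GRMZM6G654251, with LN values of 0.544 and 0.375 FPKM, GRMZM5G834303, with 0.419 and 0.562, and GRMZM2G101117, with 0.396 and 0.574. Of these last 3, GRMZM6G654251 was the most abundant in HN, at 16.8 and 26.2 FPKM.

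The same limits turned round, with both LN libraries at 3 FPKM or more and both HN libraries below 0.5, held 6 loci. The 25 switched-off loci were 0.169% of 14774 named loci at 3 FPKM or more in both HN libraries, and the 6 were 0.0375% of 15996 such loci in LN. The order of these counts depended on the limit. With 5 FPKM in place of 3 the counts were 14 and 2, and with 1 FPKM they were 79 and 105. No test of these counts was made.

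**Figure D5:**
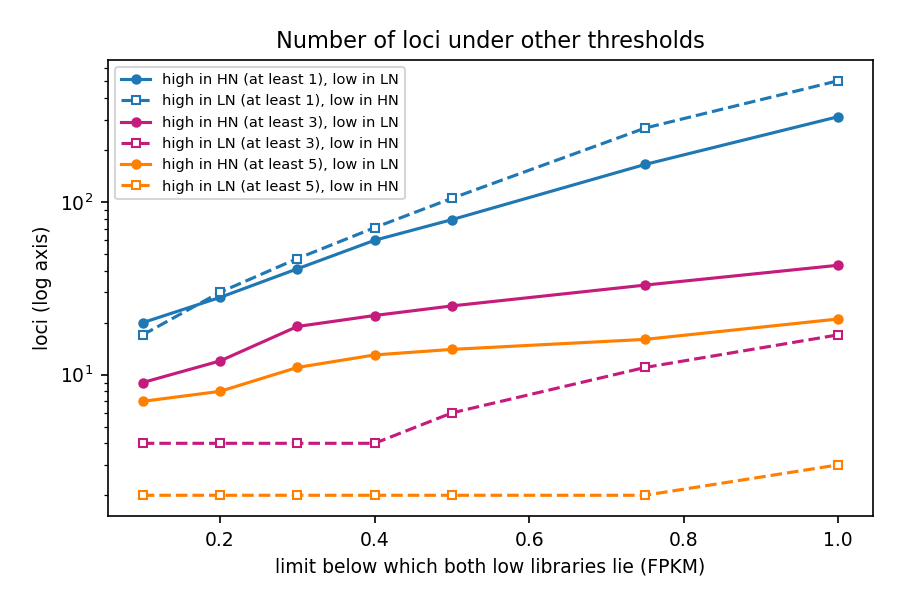
Number of loci (log axis) that are high in both libraries of 1 group and below a limit in both libraries of the other, against that limit in FPKM, for high levels of at least 1, 3 and 5 FPKM. Solid lines count loci high in HN and dashed lines loci high in LN; at 0.5 FPKM they stand at 25 and 6 for a level of 3, and at 79 and 105 for a level of 1.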

How the data were processed

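RNA of 4 libraries was sequenced by the authors. The deposited table gives FPKM per locus and library. Per the file headers it also holds a log2 fold change, a p-value and a q-value of LN against HN, made by the authors. Tools named in the submitters' processing notes are TopHat2 and edgeR, with the build B73 RefGen_v3; the transcript assembler is not given in the sources used here. Rows repeating a locus under a second gene name (946 of 31324) were dropped.

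limma 3.58.1 (R 4.3.3, limma-trend) was run on log2(FPKM + 1) over loci that reached 1 FPKM in 2 or more libraries. The model had a group term alone, p-values were adjusted by Benjamini-Hochberg with a threshold of 0.05, and the script was checked on simulated data. The design allowed for counts or FPKM, and the FPKM branch applied. Names came from the RefSeq gene table of assembly Zm-B73-REFERENCE-NAM-5.0, by exact spelling and then without regard to case; its coordinates were not used. Hb2 was taken out of the homeobox list, whose pattern had caught it. No promoter or protein sequence was analysed here. All 25 loci are named, with relatives and list members by the naming rule: loci with a symbol, the most abundant, those nearest the limits, and up to 3 called loci of a list with a switched-off locus. As no list had one, GLN2, GLK44, RR6, acco20, rbcS and the relatives were chosen after their values were seen. The members and lists were chosen with earlier results of these data known.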

Additional observations from a re-analysis of the deposited data

How the results depend on the processing

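The number of switched-off loci was 14 with an HN limit of 5 FPKM, 79 with 1 FPKM, 43 with an LN limit of 1 FPKM and 7 with LN listed at exactly 0. Leaving out 1 library at a time gave 32 to 38 loci, the highest without HN1. Values rescaled to 1000000 per library gave 22 loci, 21 of them among the 25, and quantile normalization gave 30, among them all 25. Among alternatives chosen after seeing the data, asking also for a deposited q-value under 0.05 gave 21 loci, and leaving out the 3 loci with 1 shared deposited comparison gave 22. The count of loci called by limma was 101 with a pseudocount of 0.1, 1 with no filter, 2628 under quantile normalization, 1780 after rescaling, 10470 without HN1, 4585 without HN2, 76 without LN1 and 84 without LN2; the cause was not tested. In those last fits the lone library of a group is taken to vary like the other group. The log2 changes of the 25 loci had 200 alternative values, of which 51 moved by more than the spread between libraries. All 25 loci moved with a pseudocount of 0.1 and with a pseudocount of 5. Beyond these only Hb2 moved, under quantile normalization. For GRMZM5G837022 the log2 change was -7.65 with a pseudocount of 1, -10.97 with 0.1 and -5.36 with 5. The sign of the changes is fixed by the rule and says nothing of stability. No paired analysis was possible because both HN columns carry the same name, so their replicate numbers are unknown. Absolute depth is unknown, which limits every statement on levels near 0.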

Other observations

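Of the loci without a gene model, 4 met the same limits and belong to no comparison above. Novel_3792 (chromosome 8, 146600100 to 146600736) was at 12.7 FPKM in HN1 and 64.8 in HN2, listed at 0 in LN1 and at 0.142 in LN2. Its HN libraries differed 5.11-fold, close to the 5.02-fold of GRMZM2G061439. Novel_4064 (chromosome 9) was at 12.6 and 44.5 FPKM, Novel_342 (chromosome 1) at 16.3 and 3.76, and Novel_406 (chromosome 1) at 15.7 and 9.35 FPKM in HN1 and HN2, and all 3 were listed at 0 in both LN libraries. The last 3 span 251, 272 and 245 bp.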
